A study of Mus musculus with 4 samples.

Results

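The small nucleolar RNAs (snoRNAs) and their non-coding host genes were the 84 gene symbols that began with Snord, Snora or Snhg, together with Gas5, and that had an FPKM (a read level scaled to transcript length and to the size of the library) above 0 in at least 1 sample. They were 84 of the 18859 symbols above 0 in the series, and comprised 44 box C/D snoRNAs (Snord), 27 box H/ACA snoRNAs (Snora) and 13 host transcripts (12 Snhg genes and Gas5). Another 28 Snord and 7 Snora symbols were listed at 0 in all 4 samples. The data were FPKM values of LSK-SLAM cells, the Lin- Sca1+ cKit+ CD150+ CD48- phenotype of haematopoietic stem cells (HSCs), from BRE-GFP transgenic mice on a C57BL/6 background. In these mice GFP is driven by a BMP-responsive element and reports signalling through Smad1/5 at the moment of isolation, not its history. There were 4 groups of 1 sample each, GFP+ and GFP- cells of the embryonic day 14 fetal liver (FL) and GFP+ and GFP- cells of adult bone marrow (BM), and all 4 carried the transgene. The number of embryos or mice behind a sample was not given in the sources used here. With 1 sample per group there was no replicate check, so values and counts are reported without a test or an error.

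SnoRNAs are short, stable nuclear RNAs that base-pair with pre-ribosomal RNA. Box C/D snoRNAs carry a C box near the 5′ end and a D box near the 3′ end, bind fibrillarin and direct 2′-O-methylation, whereas box H/ACA snoRNAs end in an ACA box, bind dyskerin and direct pseudouridylation. In mammals most are cut from introns of ribosomal protein, translation factor or non-coding genes, so that a single host transcript gives rise to an exon product and to the snoRNAs of its introns, and the exons of Gas5 and several Snhg genes are spliced into RNAs that are degraded during translation. Haematopoietic stem cells are known for a low rate of protein synthesis, and modified rRNA is a component of the ribosomes that set it.

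The sequences showed what the symbols name. Of the 44 Snord members, 39 had a position in the GENCODE vM1 annotation of mouse build NCBI37/mm9, with lengths from 64 to 238 bases and a median of 77, and 25 of the 27 Snora members had one, with lengths from 127 to 184 bases and a median of 133. The letters TGATG, the core of the C box, in the first 25 bases together with CTGA, the D box, in the last 20 bases of the same strand were found in 34 of the 39 Snord members (87.2%) and in 1 of 78 windows of the same length beside them (1.28%). ACA in the last 8 bases was found in 24 of the 25 Snora members (96%) and in 4 of 50 such windows (8%). Among Snord members, 3 of 39 had ACA in that place (7.69%).

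The pairs below lie in the same host gene and are shown because their values differed in direction or presence between GFP+ and GFP- cells. Each is written 5′ to 3′ on its own strand, with the box C core and box D of Snord genes and the ACA of Snora genes in capitals where these letters were found. Snord110 (chr2:130101242-130101309, plus strand) is in an intron of Nop56, and Snord57 (chr2:130103752-130103823, plus strand) overlaps an exon of a retained-intron transcript of Nop56. Snord19 (chr14:31829392-31829467, minus strand) and Snord69 (chr14:31827473-31827552, minus strand) are in introns of Gnl3. Snord100 (chr10:23505556-23505629, minus strand) and Snora33 (chr10:23505153-23505281, minus strand) are in introns of Rps12. Snord19 and Snord57 carried the D box letters only.
Snord110: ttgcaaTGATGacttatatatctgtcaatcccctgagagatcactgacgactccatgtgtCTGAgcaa
Snord57: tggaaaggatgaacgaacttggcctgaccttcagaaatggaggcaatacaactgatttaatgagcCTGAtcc
Snord19: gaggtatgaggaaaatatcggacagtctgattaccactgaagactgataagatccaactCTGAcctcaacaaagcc
Snord69: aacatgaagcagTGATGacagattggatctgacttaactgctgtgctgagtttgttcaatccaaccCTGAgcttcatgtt
Snord100: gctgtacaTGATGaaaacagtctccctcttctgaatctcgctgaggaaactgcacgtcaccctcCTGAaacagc
Snora33: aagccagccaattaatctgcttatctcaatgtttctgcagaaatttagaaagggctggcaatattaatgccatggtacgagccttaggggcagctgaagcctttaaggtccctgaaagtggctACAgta

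Abundant members seen in every sample are shown for comparison. Snord47 (chr1:162968213-162968289, plus strand) overlaps an exon of a non-coding transcript of Gas5, Snord96a (chr11:48615534-48615614, plus strand) overlaps an exon of a retained-intron transcript of Gnb2l1, and Snora70 (chrX:71517823-71517959, plus strand) overlaps an exon of a retained-intron transcript of Rpl10.
Snord47: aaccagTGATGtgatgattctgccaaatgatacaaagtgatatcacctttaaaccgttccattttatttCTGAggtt
Snord96a: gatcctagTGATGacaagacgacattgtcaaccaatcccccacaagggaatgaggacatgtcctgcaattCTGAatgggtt
Snora70: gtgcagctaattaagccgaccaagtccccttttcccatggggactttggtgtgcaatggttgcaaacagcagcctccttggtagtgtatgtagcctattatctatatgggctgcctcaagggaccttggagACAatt

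The samples differed in what else they contained. The HSC markers Kit, Ly6a, Slamf1, Mecom and Hlf were above 0 in all 4 samples, and Procr was above 0 in 3 samples and at 0 in BM GFP+. Their levels differed, and Kit, Slamf1, Mecom and Hlf were each lowest in BM GFP+. Kit was at 102 in the GFP+ and 150 in the GFP- cells of FL and 22.2 and 76.6 in those of BM. Mecom was at 45.1, 59.0, 6.29 and 13.5 in the same order. Ly6a went the other way and was highest in BM GFP+, at 286. The summed FPKM of 6 granulocyte markers was 53172 in BM GFP+ and 9622 in BM GFP-, against 107 and 36.5 in the GFP+ and GFP- cells of FL. For 4 erythroid markers the sums were 20187, 2758, 903 and 860 in the same order, for 4 B cell markers 3255, 868, 96.3 and 41.9, for 3 T cell markers 109, 23.1, 0.0624 and 0.453, and for 4 macrophage markers 136, 29.6, 26.4 and 21.7. The sum of 4 hepatocyte markers was 324 in the GFP+ and 23.2 in the GFP- cells of FL and 13.3 and 5.76 in those of BM. Cd48, used to gate cells out, was at 51.4 in the GFP+ and 17.4 in the GFP- cells of FL and 267 and 126 in those of BM. At 0 were Camp, Ltf, Ms4a1, C1qa and Cd5l in FL GFP+, Cd3e, Cd3g and Ly6c1 in both FL samples, Ttr in both BM samples and Alb in BM GFP+. Of the macrophage markers in FL, Fcna alone was higher in GFP+, whereas C1qa, C1qb and Cd5l were higher in GFP-. The part of these other cell types in the values below was not tested. The number of symbols above 0 also differed, with 12372 (FL) and 13489 (BM) in GFP+ cells and 15556 (FL) and 17345 (BM) in GFP- cells. The study's methods give the mapped reads of each library, but the files hold no reads per gene, so the count behind each FPKM is not known here.

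Box C/D snoRNAs had high FPKM values and were seen irregularly. The libraries were primed on poly(A) tails, which mature snoRNAs lack. The part of mature snoRNA in the values of Snord and Snora symbols, here and below, was not tested. The number of the 44 Snord members above 0 was 31 in the GFP+ and 28 in the GFP- cells of FL and 28 and 35 in those of BM, and the median FPKM of those above 0 was 924, 324, 503 and 531. Of the 27 Snora members, 15 were above 0 among the GFP+ and 22 among the GFP- cells of FL, and 16 and 21 among those of BM, with medians of 110.0, 69.4, 130 and 106. Thus the medians of Snord members were above those of Snora members in each sample, and Snora members were seen more often in the GFP- sample of both tissues. The same held for all detected symbols, of which 65.6% and 82.5% were above 0 in the GFP+ and GFP- cells of FL and 71.5% and 92.0% in those of BM. The 13 host transcripts were all above 0 in the GFP- samples, 11 of them were in the GFP+ samples, and their medians were 19.7, 12.6, 56.4 and 25.4. In bulk samples a lower value can mean fewer cells with the RNA or less of it per cell, and these cannot be told apart. Snord genes made up 5.29% of the summed FPKM in the GFP+ and 2.54% in the GFP- cells of FL, and 2.73% and 3.11% in those of BM. The share of Snora genes was 0.602%, 0.615%, 0.286% and 0.544%, and that of the host transcripts lay between 0.0511% and 0.0715%.

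**Figure D1:**
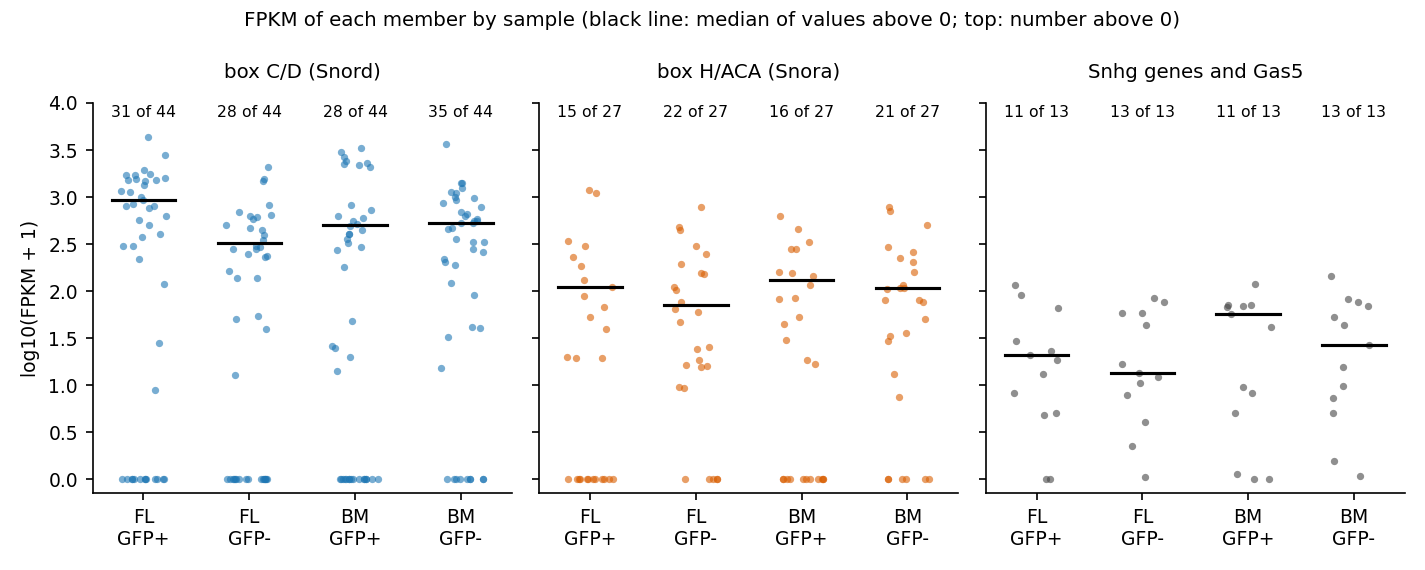
Each point is 1 member in 1 sample, on a vertical axis of log10(FPKM + 1), for box C/D genes, box H/ACA genes and host transcripts in the 4 samples, with the median of the values above 0 as a black line and the number above 0 on top. The box C/D medians lie between 324 and 924 FPKM, the box H/ACA medians between 69.4 and 130 and the host medians between 12.6 and 56.4, and the row of points at 0 is long for both snoRNA classes.

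Detection in all 4 samples was the exception for snoRNAs and the rule for host transcripts. It was reached by 16 of the 44 Snord members (36.4%), 9 of the 27 Snora members (33.3%) and 11 of the 13 host transcripts (84.6%). For microRNA genes, the other class of short genes in the files, it was 95 of 301 (31.6%), and for all other symbols 10680 of 18474 (57.8%). Presence in a single sample was recorded for 8 Snord and 3 Snora members. Of the 8 Snord members, 5 were in BM GFP- alone (Snord37, Snord1c, Snord99, Snord23 and Snord111), 2 in FL GFP+ alone (Snord91a at 1768.5 and Snord53 at 1604) and 1 in FL GFP- alone (Snord83b at 137). Snora20 at 789 and Snora35 at 74.7 were above 0 in FL GFP- alone, and Snora5c at 144 in BM GFP+ alone. The values of Snord91a and Snord53 lay above the Snord median of their sample, 924, although both were at 0 in the other 3 samples.

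**Figure D2:**
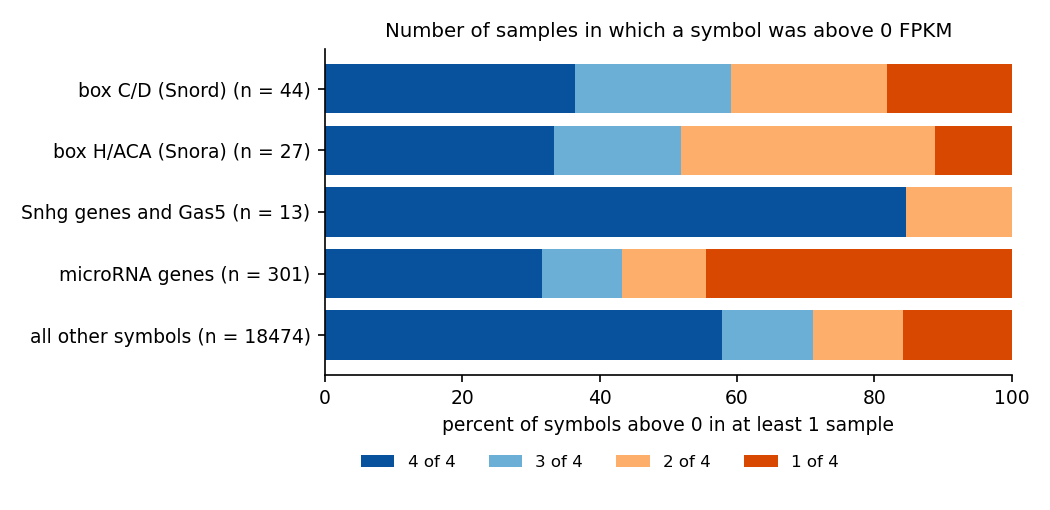
Stacked bars give, for each class, the percent of symbols above 0 FPKM in 4, 3, 2 or 1 of the 4 samples. The part seen in all 4 is 36.4% for box C/D genes, 33.3% for box H/ACA genes, 84.6% for Snhg genes and Gas5, 31.6% for microRNA genes and 57.8% for all other symbols.

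A value of 0 was common even among snoRNAs with high values elsewhere. Of the 40 Snord members whose highest FPKM was at least 100, 25 (62.5%) were at 0 in at least 1 sample, as were 9 of 18 such Snora members (50%) and 117 of 155 such microRNA genes (75.5%). Of other symbols with a highest FPKM of at least 100 it was 71 of 1677 (4.23%). Zeros were more frequent below 200 bases. Among all symbols with a highest FPKM of at least 100, 65 of 83 shorter than 100 bases (78.3%) and 14 of 27 from 100 to under 200 bases (51.9%) were at 0 somewhere, against 2 of 24 from 200 to under 500 bases (8.33%), 17 of 190 from 500 to under 1000 bases (8.95%) and 46 of 1375 of 1000 bases or more (3.35%). Among the snoRNA members alone the shares were 19 of 32 below 100 bases (59.4%) and 12 of 21 from 100 to under 200 bases (57.1%), while among microRNA genes they were 46 of 51 (90.2%) and 2 of 6 (33.3%). The lowest value above 0 had a median of 317 FPKM over Snord members, 38.4 over Snora members, 11.1 over host transcripts and 1.35 over other symbols. A fragment counts for more FPKM in a short gene, so a single FPKM figure does not stand for the same number of fragments in the 3 classes, and differences in level between them are not differences in molecules. Only 3 of the 127 symbols below 100 bases and 3 of the 63 from 100 to under 200 bases were neither snoRNA nor microRNA genes, so length and RNA class cannot be told apart in them.

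**Figure D3:**
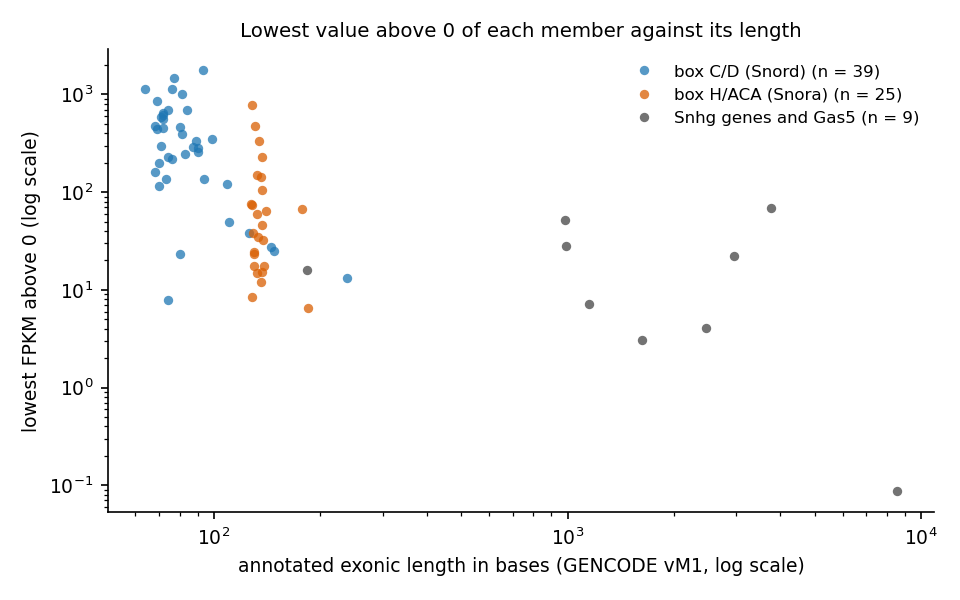
Each point is 1 member with a GENCODE vM1 position, with its exonic length in bases on a log axis against its lowest FPKM above 0 on a log axis. Box C/D genes of about 77 bases have a median lowest value of 317 FPKM over the class, box H/ACA genes of about 133 bases one of 38.4, and the longer host transcripts one of 11.1.

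Detection was also counted by the place of a snoRNA in its host, without a test. Among the snoRNAs with a host row of their own, 8 of 33 that lie wholly in an intron were above 0 in all 4 samples (24.2%), against 11 of 23 that overlap an annotated exon of the host (47.8%). The split was 5 of 20 against 5 of 14 for Snord genes and 3 of 13 against 6 of 9 for Snora genes. Of all 26 members that overlap an exon, 24 overlap exons of non-coding transcripts only, such as retained-intron forms. Snord1a and Snord45c, which overlap an untranslated region, are not among the 23. Gene-level FPKM does not separate reads of the mature snoRNA from reads of unspliced or intron-retaining host RNA, and their part was not tested. For 4 members the separation failed outright. Snord33 held exactly the 4 values of its host Rpl13a, Snord45c those of Rabggtb, Snord1a those of 1810032O08Rik and Snora26 those of Dancr, so that snoRNA and host cannot be told apart. Snora34 held the values of Mir1291. Near-identical copies elsewhere in the genome, at 95% identity or more, were found for 2 Snord members (Snord95 and Snord1c) and 8 Snora members (Snora3, Snora5c, Snora21, Snora30, Snora41, Snora65, Snora68 and Snora81), whose reads the authors' multi-read correction may have divided.

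Among the members above 0 in all 4 samples, Snord47 had the highest median. It guides methylation of large-subunit rRNA, and was at 2779 in the GFP+ and 1476 in the GFP- cells of FL and 2260.5 and 3699 in those of BM. Snord96a, from the gene of the ribosomal scaffold Rack1 (Gnb2l1), was at 4389.6, 1557, 2414 and 1005 in the same order. Snord47 was thus highest in BM GFP- and Snord96a in FL GFP+. Snord65 was at 759, 617, 2176 and 1401, and Snord49a, from the same host, at 804, 649, 2294 and 1104, and both were higher in each BM sample than in either FL sample. Snord69 was at 1513, 825, 724 and 469, Snord55 at 1333, 576, 599 and 665, and Snord12 at 1728, 281, 492 and 634, each highest in FL GFP+. Snord33, with the values of Rpl13a, was at 1722, 692, 2084 and 1235. The ratio of the highest to the lowest of the 4 values had a median of 3.53 over the 16 Snord members, from 1.94 to 26.6.

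Among Snora members above 0 in all 4 samples, Snora68 had the highest median, with 1180.3 in the GFP+ and 479 in the GFP- cells of FL and 623 and 703 in those of BM. Snora70, from the ribosomal protein gene Rpl10, was at 232, 247, 458 and 789, and was higher in both BM samples than in both FL samples. Snora41 was at 1113, 151, 278 and 224, and stood out in FL GFP+. Snora7a was at 303, 64.2, 278 and 160.1, and was lower in the GFP- sample of each tissue. Snora3 was at 183, 59.2, 81.2 and 293, highest in BM GFP-, and Snora81, from Eif4a2, was at 66.6, 195, 159.5 and 204. The ratio of highest to lowest had a median of 4.94 over these 9 Snora members, from 2.47 to 17.1. For the 11 host transcripts above 0 in all 4 samples it was 2.64, from 1.17 to 46.6.

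The first comparison asked how GFP+ and GFP- cells differed in FL, where the BMP-activated cells are marked by GFP. By the rule that one value is more than 2 times the other, 19 of 44 Snord members were higher in GFP+ and 8 in GFP-. Over all symbols the shares were 14.1% and 32.7%. Of 27 Snora members, 9 were higher in GFP+ and 12 in GFP-, and of 13 host transcripts 1 and 3. In either direction, 46.9% of all symbols were past 2-fold. The 19 Snord members were 43.2% of the class, and among microRNA genes 62 of 301 (20.6%) were higher in GFP+ and 96 in GFP-. Zeros made part of these calls, since 9 of the 19 Snord members were at 0 in GFP- and 6 of the 8 were at 0 in GFP+. For Snora members it was 2 of 9 and 9 of 12. Among members above 0 in both samples, 10 of 22 Snord members were higher in GFP+ and 2 in GFP-, and 7 of 13 Snora members were higher in GFP+ and 3 in GFP-, while over all symbols above 0 in both it was 2127 and 2453 of 11836. The median log2 ratio of FPKM + 1 was 0.53 over Snord members, 0 over Snora members, 0.24 over host transcripts and 0 over all symbols. The hepatocyte marker sum moved with this comparison (324 in GFP+ and 23.2 in GFP-), as did the granulocyte sum (107 and 36.5). Single granulocyte markers were mixed, with Elane, S100a8 and Ngp higher in GFP+ and S100a9, Camp and Ltf higher in GFP-. The part of these cell types was not tested.

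In BM the same comparison gave 8 Snord members higher in GFP+ and 13 in GFP-, against 17% and 34.7% of all symbols (51.6% in either direction). Of Snora members 5 were higher in GFP+ and 10 in GFP-, and of host transcripts 1 and 4. The Snord shares, 18.2% and 29.5%, were near those of all symbols, as were the Snora shares, 18.5% and 37.0%. When each sample was rescaled to the same FPKM total, the Snord counts became 6 and 20 and the host counts 0 and 5. Of the calls, 4 of 8 and 11 of 13 Snord members, and 2 of 5 and 7 of 10 Snora members, were at 0 in the other sample. Among members above 0 in both, 4 of 24 Snord members were higher in GFP+ and 2 in GFP-, and 3 of 14 Snora members each way. The median log2 ratio was -0.12 over Snord members, -0.17 over Snora members, -0.08 over host transcripts and -0.04 over all symbols. The sums of the granulocyte, erythroid, B cell and T cell markers were all higher in the GFP+ sample, and their part was not tested.

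Some members were past 2-fold in the same direction in both tissues, 5 Snord members and 1 Snora member with GFP+ higher (beside 2.51% of all symbols called so) and 3 Snord members, 5 Snora members and 2 host transcripts with GFP- higher (beside 13.1% of all symbols called so). Snord19, which guides methylation of small-subunit rRNA, was at 1151 (FL) and 3333 (BM) in the GFP+ samples, and at 0 in both GFP- samples. Snord57, another guide for small-subunit rRNA, was at 794 (FL) and 560 (BM) in the GFP+ samples, and likewise at 0 in both GFP- samples. These 2 were the only Snord or Snora members above 0 in both GFP+ samples and in neither GFP- sample. The share of all symbols with this pattern was not counted. Snord100 was at 1959 in FL GFP+ and 227 in FL GFP-, and at 402 in BM GFP+ and 0 in BM GFP-. Snord42b was at 924 and 0 in FL and at 2639.9 and 854 in BM. Snord96a (4389.6 and 1557 in FL, 2414 and 1005 in BM) and Snora43 (129 and 17.7 in FL, 155 and 49.2 in BM) were higher in GFP+ with all 4 values above 0, and did not overlap between the GFP+ and GFP- samples.

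The opposite pattern, above 0 in both GFP- samples and in neither GFP+ sample, was found for Snord110, Snord85, Snora28, Snora34 and Snora52. It was also found for the host transcripts Snhg10 and Snhg18. The share of all symbols with it was not counted, and more symbols were above 0 in the GFP- sample of each tissue. GFP- higher in both tissues was called for 11.9% of all members and 13.1% of all symbols. Snord110, a guide for small-subunit rRNA, was at 471 (FL) and 551 (BM) in the GFP- samples, and Snord85 was at 137 and 331. Snora28 was at 100.4 and 76.1, Snora52 at 45.9 and 106, and Snora34, which shares its values with Mir1291, at 108 and 32.3. Snord104 was above 0 throughout and lower in GFP+, with 117 and 621 in FL and 358 and 969 in BM. Snora65 was at 86.9 and 299.8 in FL and 17.6 and 262 in BM, and Snora33 was at 38.4 and 153 in FL and 0 and 108 in BM. The GFP+ values of Snord104 and Snora65 were thus below both of their GFP- values. The share of all symbols without overlap between the fractions, as also for Snord96a and Snora43, was not counted.

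Other members went in opposite directions in the 2 tissues. The pattern of GFP+ higher in FL and GFP- higher in BM held for 4 Snord and 5 Snora members (beside 4.67% of all symbols called so), and the reverse for 1 of each (beside 6.17% of all symbols called so). Snord49b was at 1486 in FL and 0 in BM among GFP+ cells and at 0 in FL and 459 in BM among GFP- cells, and Snord38a showed the same arrangement with 300.1 and 554. Snora2b did so with 341 and 105. Snora17, above 0 throughout, was at 110.0 and 15.1 in FL and 51.8 and 116 in BM, and Snora3, given above, also kept all 4 values above 0. Snord35b was at 0 and 291 in FL and at 3023 and 919 in BM, the reverse arrangement.

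FL and BM were then compared within each GFP fraction. These comparisons use the same 4 samples as those above. In GFP+ cells, 16 Snord members were higher in FL and 12 in BM, with 21.3% and 28.3% of all symbols (49.6% in either direction), and the counts were 10 and 8 for Snora members and 2 and 5 for host transcripts. With equal FPKM totals the split was 20 and 6 for Snord members and 3 and 2 for host transcripts. This multiplied FL GFP+ values by 1.13 and BM GFP+ values by 0.729, which moves every symbol towards FL. In GFP- cells, 8 Snord members were higher in FL and 20 in BM, with 21.4% and 28.5% of all symbols (49.9% in either direction), and the counts were 6 and 13 for Snora members and 1 and 3 for host transcripts. The median log2 ratio in GFP- cells was -0.70 over Snord members, -0.57 over Snora members and -0.50 over host transcripts, with -0.04 over all symbols. Equal FPKM totals gave 10 and 14 for Snord members and 2 and 2 for host transcripts in GFP- cells. In both fractions, 5 Snord members, 2 Snora members and 1 host transcript were higher in FL (beside 6.7% of all symbols called so), and 8 Snord members, 4 Snora members and 2 host transcripts were higher in BM (beside 10.7% of all symbols called so). The FL-high snoRNAs were Snord45c (626 and 302 against 23.5 and 40.2, the values of Rabggtb), Snord100, Snord52, Snord72, Snord89, Snora15 and Snora21, of which the last 4 were at 0 in both BM samples. Among the BM-high ones, Snord15a, Snord17, Snora23 and Snora75 were at 0 in both FL samples. Snord52 was at 1511 and 2102 in FL and at 0 and 353 in BM, whereas Snord73a was at 0 and 233 in FL and at 404 and 780.3 in BM. The marker sums of granulocytes, erythroid cells and B cells were higher in each BM sample than in the FL sample of the same fraction, and their part was not tested.

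The host transcripts are given in the order of their median FPKM, the highest first. Gas5, named for its accumulation in growth-arrested cells and host to box C/D snoRNAs in its introns, was at 116 in the GFP+ and 83 in the GFP- cells of FL and 68.7 and 144 in those of BM. Snhg3 was at 90.6, 57.7, 119 and 52.0, and was higher in GFP+ in each tissue, past 2-fold in BM alone (2.28-fold). Snhg6 was the steadiest, at 64.4, 75.6, 66.3 and 68.3. Snhg1 was at 22.2, 57.3, 70.1 and 81.3, and Snhg5 at 28.2, 42.6, 70.5 and 74.5, so that both were lowest in FL GFP+. Snhg8 was at 17.3, 11.1, 56.4 and 42.2, and Snhg9 at 19.7, 15.8, 40.8 and 25.4, with each BM value above both FL values. The ranges over the 4 samples overlapped between all neighbours in the order of medians, apart from Snhg9 and Snhg4, the next below it.

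The remaining host transcripts were low. Snhg4 was at 7.22, 12.6, 7.21 and 14.4, Snhg7 at 12.1, 9.49, 4.10 and 8.72, and Snhg12 at 3.78, 3.06, 8.44 and 6.33, in the order FL GFP+, FL GFP-, BM GFP+ and BM GFP-. Snhg4 was lower in both GFP+ samples and Snhg12 was higher in both BM samples. Snhg11 was at 4.03 and 1.26 in FL and at 0.124 and 0.0865 in BM, the widest range of the host transcripts above 0 in all 4 samples (46.6-fold). Snhg10 was at 6.76 (FL) and 4.02 (BM) in the GFP- samples, and Snhg18 at 0.0626 and 0.570, with both at 0 in the GFP+ samples. In all, Snhg11 was past 2-fold with GFP+ higher in FL and Snhg1, Snhg10 and Snhg18 with GFP- higher, and in BM Snhg3 was higher in GFP+ and Gas5, Snhg7, Snhg10 and Snhg18 were higher in GFP-.

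**Figure D4:**
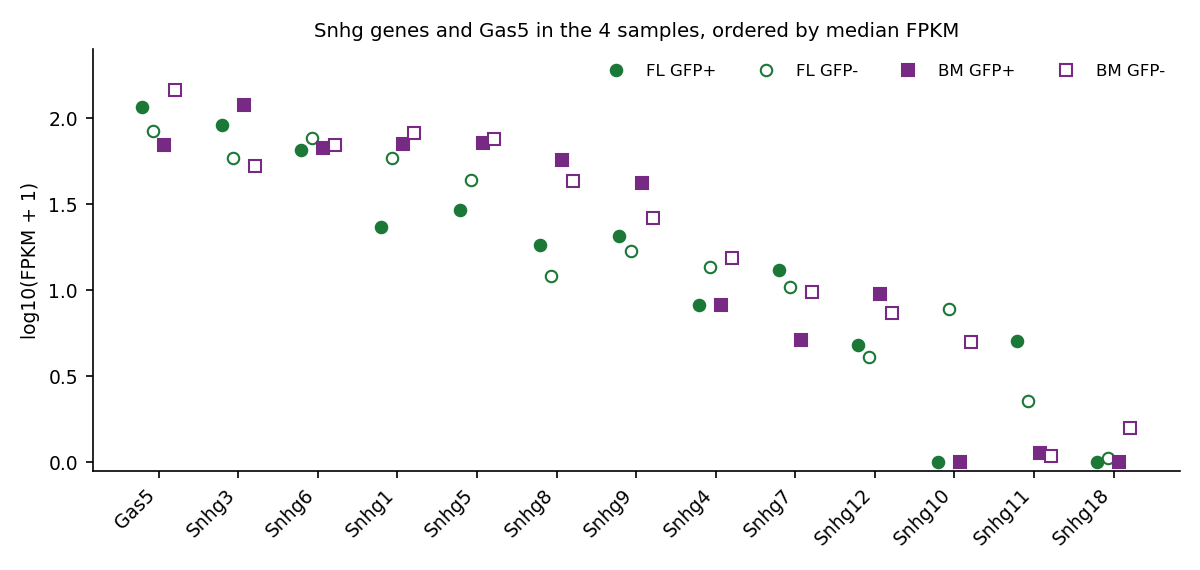
For each host transcript, ordered by median FPKM, the 4 points give log10(FPKM + 1) in FL GFP+ (filled circle), FL GFP- (open circle), BM GFP+ (filled square) and BM GFP- (open square). Gas5 to Snhg5 lie between 22.2 and 144 FPKM, Snhg6 is within 64.4 to 75.6, and Snhg10 and Snhg18 are at 0 in both GFP+ samples.

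The level of a snoRNA was then set beside that of its host. A host row separate from the snoRNA row was available for 62 snoRNAs in 48 hosts, and for 61 of them the host was above 0 in all 4 samples. The exception was Snora35, in Htr2c, whose host was above 0 in BM GFP- alone while Snora35 was at 74.7 in FL GFP- alone. Across these 62 snoRNAs Spearman's rho between the FPKM of snoRNA and host was 0.080 in the GFP+ and 0.29 in the GFP- cells of FL and 0.35 and 0.32 in those of BM, where all points of a sample share its library and where several snoRNAs share a host. Spearman's rho between the log2 ratios of snoRNA and host was -0.05 for GFP in FL, 0.03 for GFP in BM, 0.08 for tissue in GFP+ cells and 0.14 for tissue in GFP- cells. Of the 40 snoRNAs past 2-fold between GFP+ and GFP- in FL, 35 had a host within 2-fold, 3 had a host past 2-fold in the same direction and 2 in the opposite direction. In BM the counts were 27, 1 and 3 of 31. Between tissues they were 24, 9 and 6 of 39 in GFP+ cells, and 32, 7 and 1 of 40 in GFP- cells. A snoRNA past 2-fold most often had a host that was not. The share of hosts within 2-fold over all 62 snoRNAs was not counted, so these counts do not show that snoRNA and host part.

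Among the snoRNAs with a host row of their own, 12 hosts held at least 2 members. Members with the values of their host and hosts without a row were left out of this count. Between GFP+ and GFP- the snoRNAs of 1 host were past 2-fold in opposite directions in 4 of the 12 hosts in FL and in 5 of the 12 in BM, and in the same direction in 4 and in 1. Between tissues, opposite directions were found in 3 hosts in GFP+ cells and in 1 in GFP- cells, and the same direction in 4 and in 4. In all, 9 of the 12 hosts had snoRNAs in opposite directions in at least 1 of the 4 comparisons, and Nop56 and Rps12 had them in both tissues between GFP+ and GFP-. Nop56, which encodes a core protein of box C/D particles, was at 430.1 in the GFP+ and 248 in the GFP- cells of FL and 174 and 252 in those of BM. Its intronic Snord110 was above 0 in the GFP- samples alone and its Snord57 in the GFP+ samples alone, as given above. Rps12, a ribosomal protein gene, was at 374, 331, 718 and 569, and its Snord100 was higher in GFP+ in both tissues where its Snora33 was higher in GFP-. The direction could not be read from the host, whose GFP ratio was within 2-fold in both tissues for both genes.

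Other hosts showed the same spread. Eif4a2, a translation initiation helicase gene, was at 150.5 in the GFP+ and 163 in the GFP- cells of FL and 139.6 and 171 in those of BM. Its Snord2 was at 1542, 0, 444 and 1417, and its Snora81 lay between 66.6 and 204 in all 4 samples. In the non-coding host 2410006H16Rik, at 109.99, 112, 222 and 218, Snord49a and Snord65 were above 0 throughout and Snord49b was at 0 in 2 samples. In Rpl13a, at 1722, 692, 2084 and 1235, Snord32a was at 1002, 244, 295 and 278, Snord35a at 1131, 282, 514 and 259.6, and Snord34 at 219, 508, 323 and 200.3. Snord34 was higher in GFP- in FL where the other members and the host were higher in GFP+. In Gnb2l1, at 664, 667, 812 and 865, Snord95 was at 406, 162, 0 and 187 beside Snord96a. Gnl3, which encodes the nucleolar GTPase nucleostemin, was at 78.6, 78.3, 59.5 and 138, and was added to the figure because it holds Snord19. Its Snord69 was above 0 in all 4 samples while Snord19 was at 0 in both GFP- samples.

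**Figure D5:**
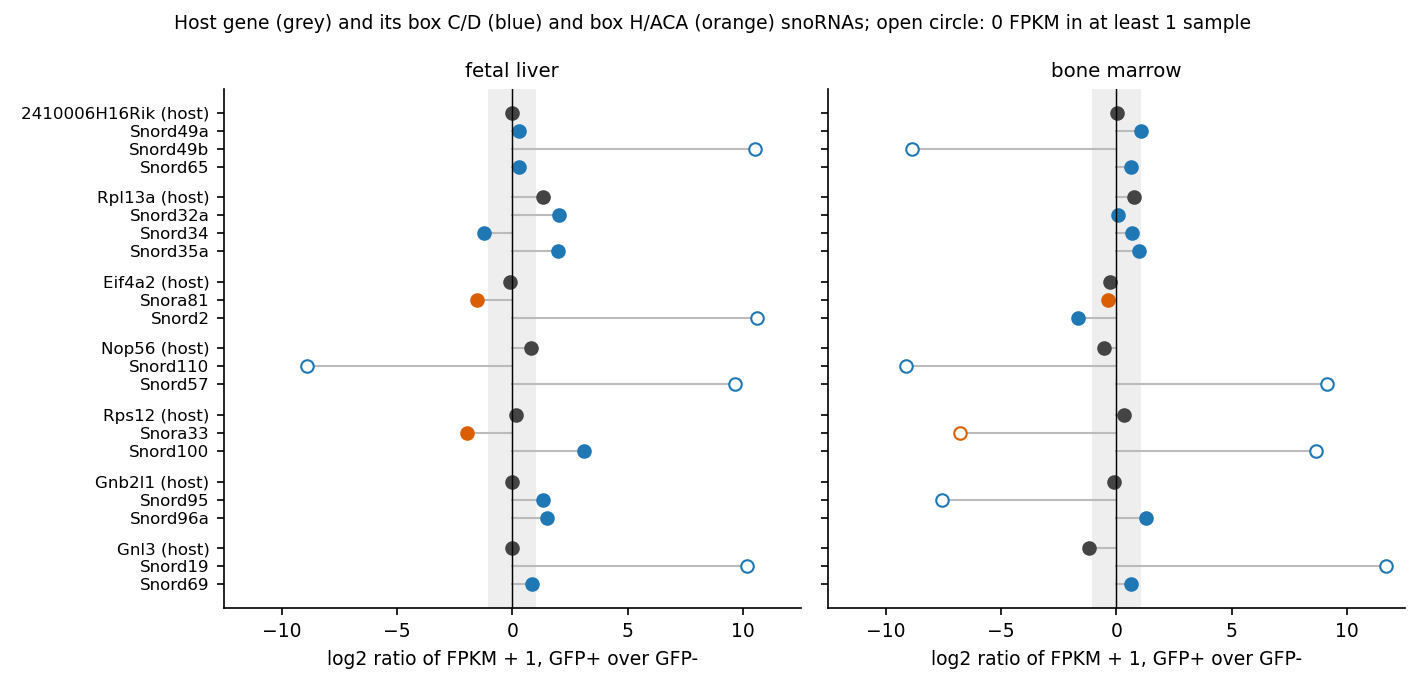
For 7 host genes (grey) and their box C/D (blue) and box H/ACA (orange) snoRNAs, the horizontal axis gives the log2 ratio of FPKM + 1 of GFP+ over GFP- in FL (left) and BM (right), with the band within 2-fold shaded and an open circle where either sample was at 0 FPKM. Snord110 lies to the left and Snord57 to the right of Nop56 in both tissues, and Snord100 and Snora33 lie on opposite sides of Rps12, at distances that depend on the 1 added to FPKM wherever a value was 0.

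The proteins that assemble and serve these particles were measured as longer messages. Of 30 genes of that list, 8 were more than 2 times higher in GFP+ and 3 in GFP- in FL (beside 14.1% and 32.7% of all symbols), with a median log2 ratio of 0.57 against 0 over all symbols. The 8 were Nufip1 (29.5 in GFP+ and 6.64 in GFP-), Rrp9, Nhp2 (189 and 79.5), Naf1, Shq1 (64.8 and 28.7), Pih1d1, Upf1 and Smg1. Znhit3 (17.6 and 64.8), Znhit6 and Exosc10 were higher in GFP-. In BM, Smg1 alone was higher in GFP+ and Naf1, Nolc1, Coil and Upf1 were higher in GFP- (beside 17% and 34.7% of all symbols). The median was -0.28 against -0.04 over all symbols. Naf1 (0.0388 in GFP+ and 0.571 in GFP-) and Upf1 (0.0743 and 0.316) were called on low BM values. With equal FPKM totals the counts were 4 and 3 in FL and 0 and 9 in BM. The shares of all symbols are for values as deposited and were not counted under equal totals. The hepatocyte and granulocyte marker sums in FL, and the blood lineage marker sums in BM, moved with these comparisons as given above, and their part was not tested.

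Fbl, Dkc1 and Nop58 were within 2-fold between GFP+ and GFP- in both tissues. The methyltransferase gene Fbl was at 205 in the GFP+ and 122 in the GFP- cells of FL and 151 and 216 in those of BM, and the pseudouridine synthase gene Dkc1 at 87.4, 75.5, 55.1 and 99.0. Nop58, the partner of Nop56 in box C/D particles, was at 224, 186, 144 and 226. All 3 values were higher in GFP+ than GFP- in FL and lower in BM. Between tissues, 9 of the 30 genes were higher in FL and 2 in BM in GFP+ cells (beside 21.3% and 28.3% of all symbols), with a median log2 ratio of 0.72 (Nop56, Naf1, Shq1, Ruvbl1, Rpap3, Nolc1, Coil, Nop2 and Upf1 against Znhit3 and Znhit6), and with equal FPKM totals 22 and 2. In GFP- cells 2 were higher in FL (Upf1 and Smg5) and 1 in BM (Nhp2), beside 21.4% and 28.5% of all symbols. The median was -0.08, and equal FPKM totals gave 6 and 0. The shares of all symbols here are for values as deposited. Equal totals moved every symbol towards FL in both fractions, by the factors given above. Naf1 and Upf1 were below 1 FPKM in both BM samples.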

How the data were processed

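SMARTer libraries of total RNA were sequenced on a HiSeq2000, and the deposited FPKM were calculated by the authors with Bowtie, TopHat and Cufflinks 2.2.1. Cuffquant corrected for fragment bias and for reads with several mappings, and Cuffnorm normalised the 4 samples geometrically. The study's methods name build mm9 and the submitters' processing notes name mm10, and the gene annotation is not given in the sources used here. SMARTer primes on poly(A) tails, which mature snoRNAs lack. Each sample lists the same 23906 symbols. Depth is given in the study's methods for each library only, and with neither counts per gene nor errors in the files the precision of a single value is not known here.

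Samples were grouped by their labels, 1 per group, and no test was run. A symbol was called higher where its FPKM as deposited was more than 2 times the other. The study used this fold for GFP+ against GFP- and required it in both tissues, whereas here it was also applied within 1 tissue and between tissues. A symbol at 0 in 1 sample was called if it was above 0 in the other. Log2 ratios used FPKM + 1, and medians were taken over members. The share of all 18859 detected symbols called is given beside the first count of each comparison and beside the particle protein counts. It was counted on the values as deposited alone. The calling script was tested on simulated data. The snoRNAs, host transcripts, named genes and gene lists were chosen with earlier results of these data known. Named were all host transcripts, the 8 Snord and 8 Snora members with the highest median among those above 0 in all 4 samples, up to 6 per direction past 2-fold alike in both tissues, the snoRNAs of 6 hosts with 3 or more members or with opposite directions, and the particle proteins. Other members given by name were chosen after their values were seen. A listed marker gene and a host gene are not reported here.

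Positions, lengths, exons and sequences are from GENCODE vM1 on NCBI37/mm9. Of the snoRNA members 7 (Snord52, Snord53, Snord55, Snord73a, Snord87, Snora15 and Snora26) are not in it, and their hosts were taken from RefSeq GRCm38.p6 without coordinates. Boxes were searched on the sense strand, and copies were sought with blastn 2.17.0 at 95% identity over 90% of the length. The other steps used Python 3.11.15, numpy 2.4.6, pandas 2.3.3, samtools 1.23.1, pysam 0.24.0 and matplotlib 3.10.9. Alternatives were pseudocounts, thresholds of 1.5 and 4, filters on low values, members above 0 in both samples, equal FPKM totals or upper quartiles, and, chosen after seeing the data, leaving out the 5 members with the values of another symbol, counting detection without BM GFP+, and keeping the 4 members with host values in the comparison within hosts.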

Additional observations from a re-analysis of the deposited data

Results flagged for a closer look

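For 11 snoRNAs the GFP+ sample was more than 2 times the GFP- sample in one tissue and the GFP- sample more than 2 times the GFP+ sample in the other, and with 1 sample per group the difference between the tissues was not tested. The log2 ratio of FPKM + 1 of GFP+ over GFP- in FL minus that in BM was 19.38 for Snord49b, 17.35 for Snord38a, 12.26 for Snord2 and 8.88 for Snord95, and -9.91 for Snord35b. For Snora members it was 15.14 for Snora2b, 9.44 for Snora16a, 7.39 for Snora26, 3.94 for Snora17, 3.45 for Snora3 and -10.13 for Snora30. A value of 0 enters the difference of each of these apart from Snora17 and Snora3, and its size then depends on the 1 added to FPKM. Snora26 holds the values of its host Dancr, and Snord95, Snora3 and Snora30 have a near-identical copy in the genome.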

How the results depend on the processing

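Of 184 alternative values 142 stayed within 1.5 times the reported count or within 0.1 of the reported median, and 42 did not. With members above 0 in both samples alone, the members past 2-fold in FL between GFP+ and GFP-, in BM, and between tissues in GFP+ and in GFP- cells were 12, 6, 15 and 11 Snord and 10, 6, 5 and 10 Snora members, and 2 host transcripts in FL and 3 in BM, fewer by construction. At 1.5-fold there were 34 Snord members in BM, 8 host transcripts in FL and 8 between tissues in GFP- cells, and 18, 12, 22 and 9 particle protein genes in the 4 comparisons. At 4-fold there were 16 Snord members between tissues in GFP+ cells, 12 Snora members in GFP- cells, and 2, 2, 1 and 2 host transcripts. Hosts with snoRNAs in opposite directions at 4-fold numbered 1 in FL, 2 in BM and 0 between tissues in GFP+ cells, and hosts in the same direction 2 between tissues in each fraction. With 1 added to FPKM there were 3 host transcripts in BM and 2 between tissues in GFP- cells. Equal FPKM totals gave host medians of 0.040 in FL, -0.53 in BM and -0.075 in GFP- cells, equal upper quartiles 0.063, -0.18 and -0.33, and an FPKM of at least 1 in some sample -0.21 in GFP+ and -0.34 in GFP- cells. Equal totals gave 7, 9, 24 and 6 particle protein genes and moved the median of all symbols from -0.04 to -0.17 in BM and from -0.04 to 0.11 in GFP- cells. The cause of these changes was otherwise not tested. Without BM GFP+, 18 Snord members, 11 Snora members and 11 host transcripts were above 0 in each of the other 3 samples. No paired analysis was run, since every result is a value or a count without a test. No group keeps a sample when its own is left out.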
